A study of Drosophila melanogaster with 10 samples.

Results

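The genes described here encode the machinery that moves cargo and chromosomes along microtubules in Drosophila melanogaster: kinesins, dynein chains, the dynactin complex, tubulins and a few linkers. A gene was included when its array annotation listed the Gene Ontology process microtubule-based movement and its probe set carried a single gene symbol. Where a gene had several such probe sets, the one with the highest mean over the arrays stood for it. This gave 87 genes of the 12401 with a single symbol on the array. All 87 were matched to a current gene symbol by their RefSeq accession. The annotation text is cut at 750 characters for 1154 probe sets, so genes with long annotations can be missed. The heavy and intermediate chains of cytoplasmic dynein, Dhc64C and sw, had no probe set under those symbols and are not analysed here.

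Microtubules are hollow filaments of alpha- and beta-tubulin with a fast-growing plus end and a minus end. Most kinesins walk toward the plus end and cytoplasmic dynein walks toward the minus end with the help of dynactin, and both burn ATP. In dividing cells a separate set of kinesins builds the spindle, moves chromosomes and assists cytokinesis, while axonemal dyneins beat cilia and sperm tails.

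RNA came from cultured DL1 cells bathed in double-stranded RNA (dsRNA) against renilla, which served as the control RNAi, or against nbr (CG9247), which encodes the exonuclease Nibbler that trims microRNA ends. Both groups were harvested 5 days later, with 5 independent replicates each per the series' design text and 1 Affymetrix Drosophila_2 array per replicate. Levels are the authors' GCRMA values on the log2 scale, and precision is limited by having 5 arrays a group. The comparison asks which genes are affected by the loss of nbr. The probe set of nbr (FBgn0032924) ran from 11.16 to 11.48 in control RNAi and from 7.56 to 8.84 in nbr RNAi, a log2 fold change of -3.16 (SE 0.203; limma, Benjamini-Hochberg adjusted p = 1.46e-04). Nbr RNAi array 5 stood apart, with a median correlation of 0.982 to the other arrays across probe sets, against 0.994 to 0.997 for the other 9. Of 12 markers of hemocytes, the fly blood cells, 10 had a mean above the filter described next and Col4a1 and Sr-CI did not, and 1 of 7 neuronal markers (elav) and 3 of 8 germline markers were above it. All 8 testis, all 8 muscle and all 8 ciliated-neuron markers were below it.

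A usable signal was obtained for about 1 gene in 2. A mean level of at least 4 over the 10 arrays was required for testing, and 43 of the 87 genes (49.4%) reached it, against 52.9% of all genes with a single symbol. The other 44 lay near background, with means from 1.91 to 3.55, and their differences between groups, from -0.028 to 0.054, set no limit on real changes. The genes nearest the filter were Klp64D and Dhc62B above it, with means of 6.10 and 6.15, and alphaTub85E and Dred below it, with means of 3.55 and 2.70. No gene lay between 3.55 and 6.10.

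The usable signal was more frequent in some role lists than in others. It was present for 9 of 11 mitotic kinesins, for 10 of 14 transport kinesins and partners, for 4 of 5 cytoplasmic dynein chains and for all 7 dynactin subunits and regulators. Only 4 of 10 tubulins and 2 of the 16 genes listed as axonemal and other dynein chains reached the filter. Among the genes below it, named after their values were seen, were the meiotic kinesin gene sub, the testis tubulin betaTub85D and the maternal alphaTub67C. The Y-linked dynein genes kl-2, kl-3 and kl-5 of the sperm tail were also below it. Genes with germline roles were not all below the filter. Nod, a kinesin of female meiosis, had a mean of 11.63. Of the 8 germline markers, 3 (grk, tud and piwi) were above the filter and 5 below. The testis and ciliated-neuron markers each had a mean below the filter, the highest being Rfx at 3.91. Oseg2, a marker of ciliated neurons, is also among the genes described here, so that list is not separate from them. Per array the testis and ciliated-neuron lists summed to 17.30 to 17.73 and to 18.52 to 19.32 log2 units. These are sums over genes with means below the filter, although Rfx read up to 4.32 on single arrays.

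**Figure D1:**
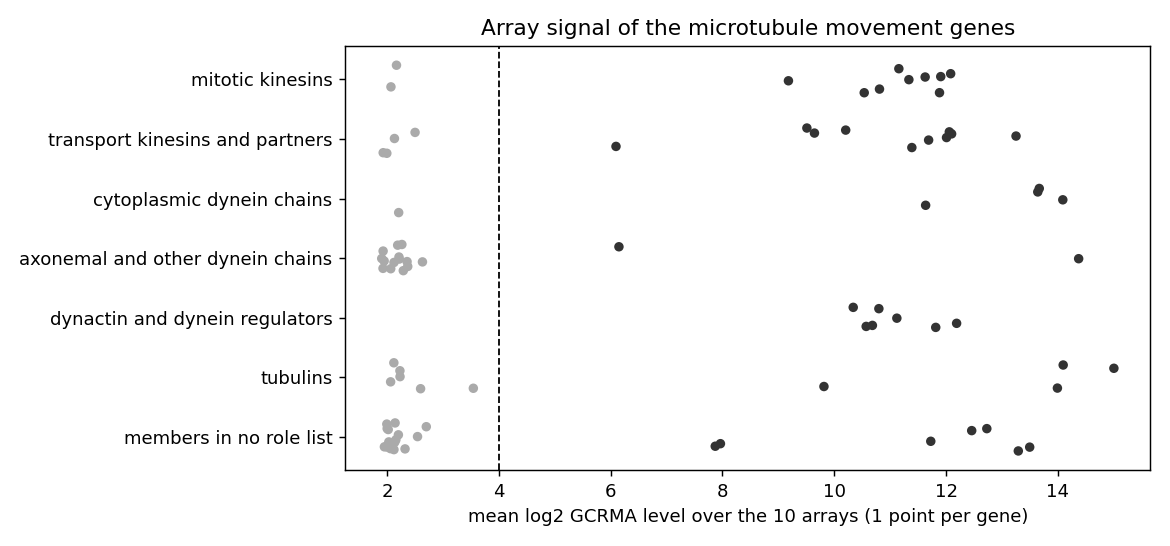
Mean log2 GCRMA level over the 10 arrays (horizontal axis) of each of the 87 genes, 1 point per gene, in rows by role, with small vertical offsets only to separate points. The dashed line is the filter at 4: 43 genes lie above it (dark) and 44 below it (grey). Of the 16 genes listed as axonemal and other dynein chains, 14 are below.

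None of the 43 tested genes changed between the treatments by limma's test. The call required a Benjamini-Hochberg adjusted p under 0.05 over the 7729 probe sets tested, of which 2 (0.0259%) were called, and the lowest adjusted p among the 43 was 0.849. An unmoderated equal-variance test and a robust trend in limma also called 0. At an unadjusted p under 0.05 in limma, 5 genes were higher in nbr RNAi (pav, Klp3A, cos, Lis-1 and cpa) and 0 were lower. That is 11.6% of the 43 higher, against a background of 4.15% of all probe sets tested, and 0% lower against 1.72%. The mean was higher in nbr RNAi for 32 of 43 genes (74.4%), against 52.9% of all probe sets, and the median log2 fold change was 0.038, against 0.0056.

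The count of 5 rested in part on single arrays. Lis-1, cos and cpa stayed at an unadjusted p under 0.05 in each limma fit that left out 1 array, but pav and Klp3A did not. Without both nbr RNAi array 5 and control array 3, Klp3A and cpa were not under it, while Lis-1, cos, pav and Dic61B were. The count was 3 of 43 without control array 3, control array 4 or nbr RNAi array 4. There 2.73%, 2.51% and 4.24% of all probe sets, in that order, reached that p in the higher direction. It was 8 of 43 without nbr RNAi array 5, where the background was 5.37%. Every value of nbr RNAi exceeded every control value for 1 gene, Kap3 (2.33% of 43, background 0.75%), and the reverse held for 0 (background 0.22%). The 95% interval of the fold change lay within 1.5-fold in either direction for 42 of 43 genes and within 2-fold for all 43. Most probe sets did the same, with 7177 of the 7729 tested within 1.5-fold and 7576 within 2-fold. The median log2 fold change, 0.038, was smaller than the usual spread of a single gene between replicates. Per gene, the median SD over 5 arrays was 0.097 in control RNAi and 0.102 in nbr RNAi. The median SE of a gene's fold change was 0.066. These values do not measure how the median over the 43 genes varied between arrays. In the authors' deposited table, whose headers write tmr for the treated group, the lowest q-value among these 43 genes was 17.9%.

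**Figure D2:**
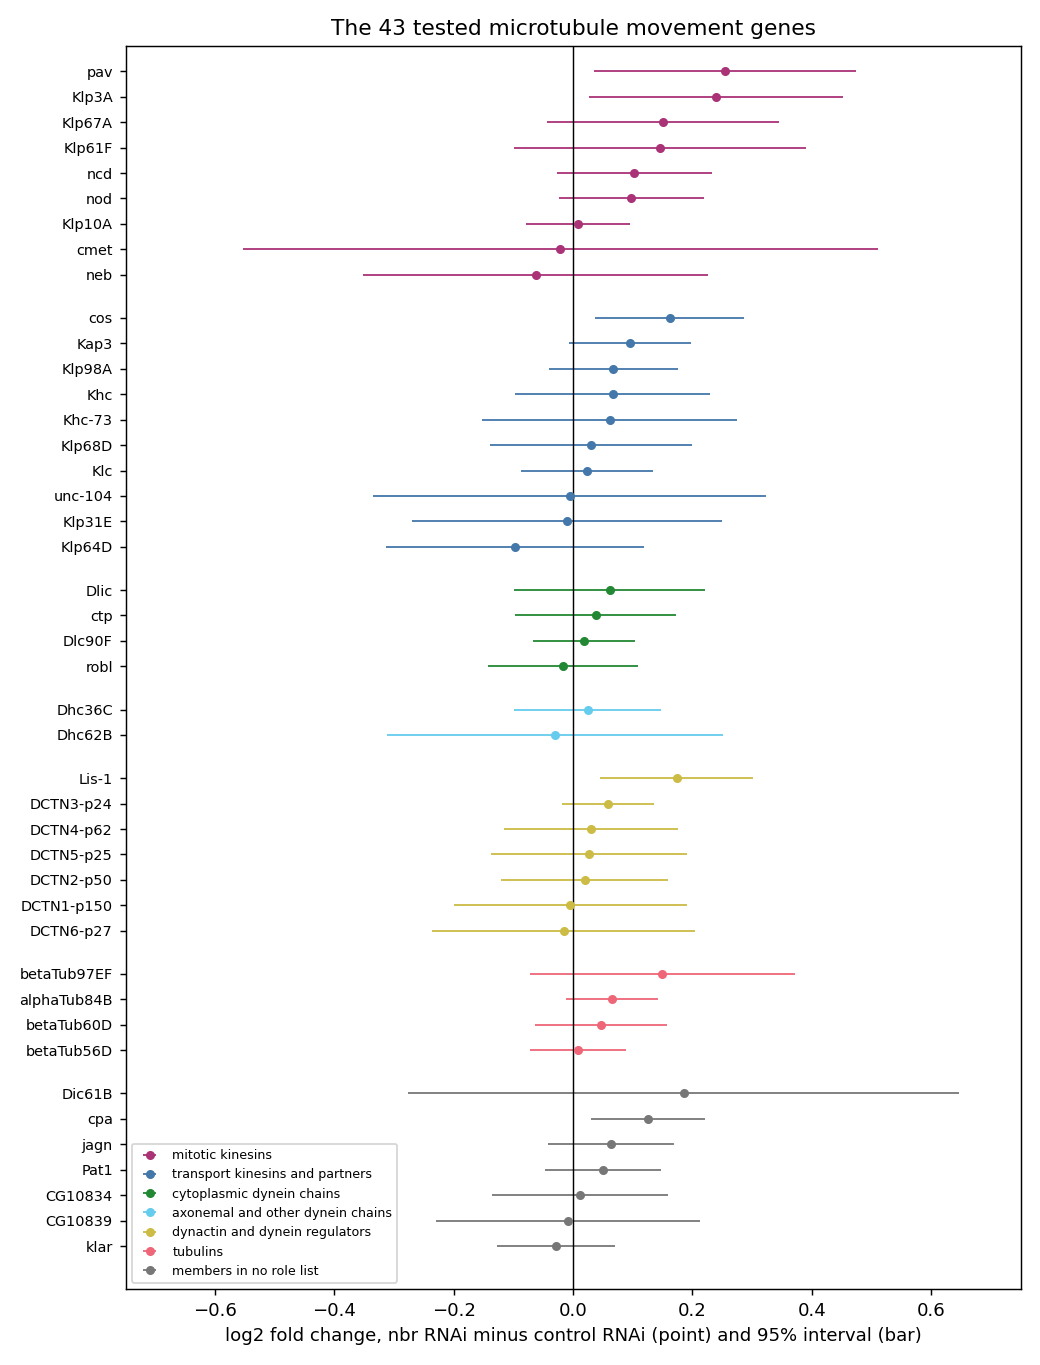
Log2 fold change, nbr RNAi minus control RNAi, of the 43 tested genes (points) with 95% intervals from limma (bars), grouped and coloured by role. The points run from -0.097 for Klp64D to 0.25 for pav, and the intervals of 5 genes (pav, Klp3A, cos, Lis-1 and cpa) exclude 0 before adjustment.

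Among the mitotic kinesins, mean levels were higher in nbr RNAi for 7 of the 9 tested genes and lower for 2, and none passed the test. In the unadjusted test 2 (pav and Klp3A) were higher and 0 lower. Over all probe sets tested, 52.9% had a higher mean. At an unadjusted p under 0.05 in limma, 4.15% of them were higher and 1.72% lower. The median log2 fold change was 0.10 and the values ran from -0.063 to 0.25. Had a rise been called, more dividing cells and more RNA per dividing cell could not have been told apart in a culture.

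Pav, the kinesin of the central spindle that directs cytokinesis, had the highest fold change of the group. Its log2 levels on control arrays 1 to 5 were 11.42, 11.23, 11.03, 11.04 and 11.32. With nbr RNAi they were 11.61, 11.37, 11.42, 11.66 and 11.26 in the same order. Control arrays 3 and 4 were the lowest, nbr RNAi arrays 1 and 4 the highest, and the groups overlapped. The means were 11.21 ± 0.171 and 11.46 ± 0.167 (SD, n = 5), a log2 fold change of 0.25 (95% interval 0.035 to 0.47; limma, Benjamini-Hochberg adjusted p = 0.849). Leaving out 1 array at a time gave 0.21 to 0.31.

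Klp61F slides antiparallel microtubules apart and keeps the spindle bipolar. It read 12.01, 11.80, 11.62, 11.65 and 11.97 on control arrays 1 to 5, and 12.03, 11.91, 12.04, 12.16 and 11.63 on nbr RNAi arrays 1 to 5. Nbr RNAi array 5 was as low as the lowest control arrays, while the other nbr RNAi arrays lay above the control mean of 11.81. The log2 fold change was 0.15 (95% interval -0.098 to 0.39; limma, Benjamini-Hochberg adjusted p = 0.878). It was 0.23 without nbr RNAi array 5 (limma, adjusted p = 0.476, and 0.378 to 1.0 over all settings run) and 0.095 without nbr RNAi array 4, the lowest over the fits that left out 1 array.

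Ncd, a minus-end-directed kinesin that focuses spindle poles, varied less. Its control arrays read 12.14, 12.01, 11.94, 11.93 and 12.13 and its nbr RNAi arrays 12.20, 12.05, 12.05, 12.15 and 12.21. Control arrays 1 and 5 fell inside the range of nbr RNAi. The means were 12.03 ± 0.101 and 12.13 ± 0.0793 (SD, n = 5), and the log2 fold change was 0.10 (95% interval -0.027 to 0.23; limma, Benjamini-Hochberg adjusted p = 0.866).

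Klp3A, a chromosome-bound kinesin of the central spindle, read 10.56, 10.37, 10.29, 10.21 and 10.66 in control RNAi and 10.63, 10.48, 10.64, 10.85 and 10.68 in nbr RNAi. Control arrays 1 and 5 lay inside the nbr RNAi range, and control arrays 2, 3 and 4 lay below it. Its log2 fold change was 0.24 (95% interval 0.027 to 0.45; limma, Benjamini-Hochberg adjusted p = 0.849). Klp67A, which shortens microtubules at their plus ends and limits spindle length, was at a log2 fold change of 0.15 (95% interval -0.044 to 0.35). Nod, a chromosome-bound kinesin of female meiosis, was at 0.098, and Klp10A, a microtubule depolymerase of the spindle poles, at 0.0085 with an interval of -0.079 to 0.096.

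Cmet and neb had lower means in nbr RNAi, and both signs turned when a single array was left out. Cmet, the fly CENP-E that carries chromosomes at their kinetochores, read 12.18, 11.85, 11.66, 11.75 and 12.13 in control RNAi and 12.15, 12.02, 12.15, 12.23 and 10.91 in nbr RNAi. The value of nbr RNAi array 5 differed by -1.23 from the mean of its 4 fellow replicates. With it the log2 fold change was -0.022 (95% interval -0.55 to 0.51) and without it 0.22 (limma, Benjamini-Hochberg adjusted p = 0.501, and 0.501 to 1.0 over all settings run). It was also above 0 without control array 1 (0.045) or control array 5 (0.033). Neb, also called Klp38B, was at -0.063, and at 0.053 without nbr RNAi array 2, which read 8.69 against 9.07 to 9.42 on the other nbr RNAi arrays.

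The mitotic kinesins differed from array to array within each treatment. On control arrays 1 to 5, 8, 3, 2, 0 and 8 of the 9 genes were above their own control mean, and on nbr RNAi arrays 1 to 5, 8, 5, 7, 9 and 7 were. On nbr RNAi array 5, 3 of the 9 had a lower value than on average over the other nbr RNAi arrays and 6 a higher one. Klp10A went its own way, with its highest value on control array 2 and its lowest on control array 5. Nbr RNAi array 4 held the highest value of 6 of the 9 genes, against 9.10% of all probe sets tested. What sets these arrays apart is not given in the labels, and its part in the result was not tested.

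**Figure D3:**
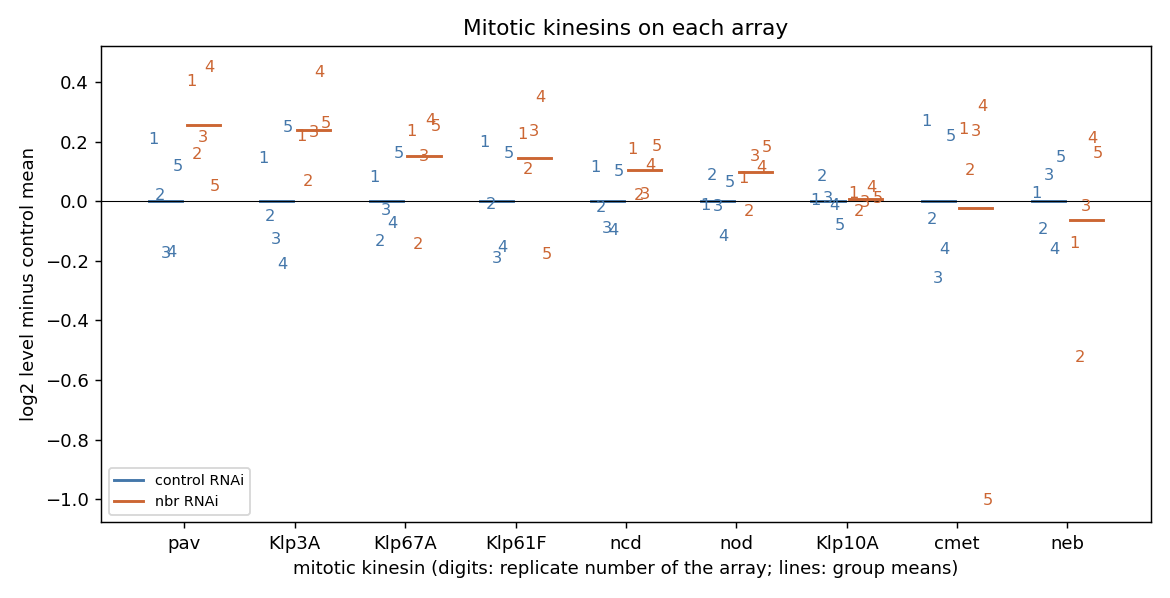
Log2 level minus the mean of the 5 control arrays (vertical axis) for the 9 tested mitotic kinesins. Digits are the replicate numbers of the arrays, offset sideways by replicate, and lines are group means (blue control RNAi, orange nbr RNAi). The groups overlap for each of the 9 genes, and cmet on nbr RNAi array 5 lies about 1 log2 unit below its control mean.

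The cytoplasmic dynein chains differed little between treatments. Mean levels were higher in nbr RNAi for 3 of 4 tested chains, none passed, and 0 reached an unadjusted p under 0.05 in limma. Of all probe sets tested, 52.9% had a higher mean, and 4.15% were higher and 1.72% lower at that p. Their log2 fold changes ran from -0.017 to 0.062 with a median of 0.028. Dlic, the light intermediate chain that joins dynein to its cargo adaptors, read 11.51, 11.81, 11.55, 11.65 and 11.49 in control RNAi and 11.66, 11.73, 11.75, 11.49 and 11.69 in nbr RNAi. The groups overlapped throughout, and the log2 fold change was 0.062 (95% interval -0.098 to 0.22; limma, Benjamini-Hochberg adjusted p = 0.922). It was 0.11 without control array 2, 0.10 without nbr RNAi array 4, 0.037 without control array 1 and 0.033 without control array 5.

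The light chain genes were nearly level. Dlc90F, a light chain of the Tctex type, was at a log2 fold change of 0.019 (95% interval -0.067 to 0.10). Robl, the roadblock light chain, was at -0.017 (-0.14 to 0.11). Ctp, a light chain shared with many other complexes, ran from 14.01 to 14.10 in control RNAi and from 13.89 to 14.21 in nbr RNAi, a log2 fold change of 0.038 (-0.097 to 0.17). Without nbr RNAi array 5, the lowest of its group, ctp was at 0.092 (limma, Benjamini-Hochberg adjusted p = 0.481, and 0.481 to 1.0 over all settings run). A second ctp probe set had the opposite sign, at -0.084 (SE 0.0756). Cdlc2, a close paralog of ctp, lay below the filter, and signal from probes that the 2 genes may share cannot be assigned to either.

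In the list of axonemal and other dynein chains, Dhc36C and Dhc62B were the tested genes. The list leaves out Dic61B, which was tested among the genes in no role list (mean 7.96). Dhc36C, annotated as a dynein heavy chain, ran from 14.24 to 14.43 in control RNAi and from 14.24 to 14.47 in nbr RNAi. Its ranges nearly coincided, with a log2 fold change of 0.025 (95% interval -0.099 to 0.15). Dhc62B, at a mean of 6.15, was at -0.030 (-0.31 to 0.25), and the adjusted p in limma was 0.964 for the first and 0.985 for the second. The signal of Dhc36C was found with the markers of testis and of ciliated neurons below the filter.

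Most listed dynactin genes were highest on 1 array. Of the 7 tested dynactin subunits and regulators, 6 had their highest value on nbr RNAi array 5. That array held the highest value of 33.1% of all probe sets tested. The other was Lis-1, one of the 5 genes higher at an unadjusted p under 0.05 in limma. Cpa, another of those 5, is also part of dynactin but is in no role list. DCTN2-p50 (dynamitin), which holds the shoulder of the complex together, read 12.16, 12.12, 12.31, 12.23 and 12.07 in control RNAi and 12.17, 12.14, 12.15, 12.15 and 12.38 in nbr RNAi. Its log2 fold change was 0.019, and -0.026 without nbr RNAi array 5. DCTN5-p25, a subunit of the pointed end of dynactin, was at 0.027, and -0.020 without that array.

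Lis-1 was the dynein regulator with the lowest unadjusted p. Its product binds the dynein motor and is needed for nuclear positioning. Lis-1 read 10.96, 11.11, 10.99, 10.92 and 11.20 in control RNAi, against 11.25, 11.21, 11.16, 11.26 and 11.16 in nbr RNAi. Control array 5 alone reached the nbr RNAi range. The means were 11.03 ± 0.116 and 11.21 ± 0.0461 (SD, n = 5), a log2 fold change of 0.17 that was not called (95% interval 0.045 to 0.30; limma, Benjamini-Hochberg adjusted p = 0.849). DCTN3-p24, a subunit of the dynactin shoulder, was at 0.059 with an interval of -0.018 to 0.14.

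All 4 tested tubulins had slightly higher means in nbr RNAi, as did 52.9% of all probe sets tested, and none passed. With all arrays and the filter, none reached an unadjusted p under 0.05 in limma's standard fit. AlphaTub84B did reach it with a robust trend, in the unmoderated test, without the filter and without control array 5, and betaTub97EF did without nbr RNAi array 3. AlphaTub84B, a widely used alpha-tubulin, read 14.93, 14.98, 14.96, 14.95 and 15.03 in control RNAi and 14.99, 15.04, 15.05, 15.05 and 15.04 in nbr RNAi. Control array 5 and nbr RNAi array 1 made the groups overlap. Its log2 fold change was 0.065 (95% interval -0.013 to 0.14; limma, Benjamini-Hochberg adjusted p = 0.866). BetaTub97EF was at 0.15 with an interval of -0.073 to 0.37, and at 0.085 without nbr RNAi array 5, where it read 10.15. BetaTub60D was at 0.047 (-0.063 to 0.16). BetaTub56D, the main beta-tubulin of most cells, was at 0.0082 (-0.072 to 0.088), a sign that turned to -0.021 after quantile normalization.

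Set against each other, mitotic kinesins had a larger mean difference than dynein chains or tubulins, but arrays of the same treatment differed by more. The mean log2 fold change was 0.10 for the 9 mitotic kinesins, 0.025 for the 4 cytoplasmic dynein chains and 0.067 for the 4 tubulins. Mitotic kinesins minus dynein chains, both relative to their control means, read 0.15, -0.081, -0.089, -0.16 and 0.18 on control arrays 1 to 5. On nbr RNAi arrays 1 to 5 the same difference read 0.14, -0.067, 0.091, 0.27 and -0.050. The array values of the groups overlapped. The mean of this difference was 0.076 in nbr RNAi, and its SD over single control arrays was 0.154.

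Mitotic kinesins minus tubulins averaged 0.034 in nbr RNAi, with an SD of 0.105 among the controls and 0.151 among the nbr RNAi arrays. Leaving out nbr RNAi array 5 gave means of 0.13 for mitotic kinesins, 0.022 for dynein chains and 0.053 for tubulins. Without nbr RNAi array 4 the mitotic kinesins and the tubulins came close, at 0.063 and 0.058. The value for dynein chains ran from 0.011 without control array 5 to 0.040 without control array 2.

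**Figure D4:**
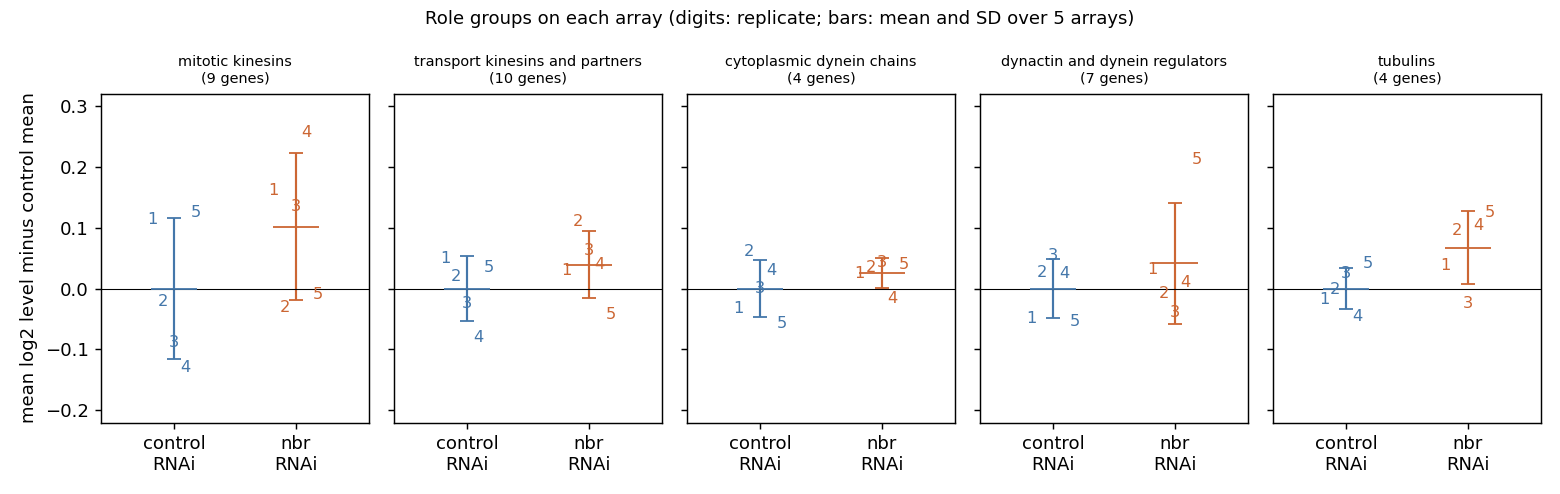
Mean log2 level, minus the control mean, over the tested genes of 5 roles on each array (vertical axis), with replicate numbers as digits and the mean and SD over the 5 arrays of a group as lines and bars. Control and nbr RNAi overlap in each panel, the mitotic kinesins span the widest control range of the 5 roles drawn, and dynactin is highest on nbr RNAi array 5, at 0.21.

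The transport kinesins had a median log2 fold change of 0.046, and none passed. Their means were higher in nbr RNAi for 7 of 10, against 52.9% of all probe sets tested. Cos (Costal2), a kinesin-related scaffold of Hedgehog signalling that does not act as a motor in that role, read 11.65, 11.61, 11.63, 11.44 and 11.69 in control RNAi. In nbr RNAi it read 11.69, 11.81, 11.82, 11.69 and 11.83. Control array 4 was lowest, and control array 5 lay just inside the nbr RNAi range. The log2 fold change was 0.16 (95% interval 0.038 to 0.29; limma, Benjamini-Hochberg adjusted p = 0.849).

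Kap3, the accessory subunit of kinesin-II, was the gene without overlap between groups. It read 12.11, 12.12, 12.06, 11.90 and 12.07 in control RNAi and 12.13, 12.14, 12.14, 12.14 and 12.18 in nbr RNAi. The highest control value, 12.12, lay next to the lowest nbr RNAi value, 12.13. The log2 fold change of 0.095 was not called (95% interval -0.0073 to 0.20; limma, Benjamini-Hochberg adjusted p = 0.857). Klp64D, a motor subunit of the same kinesin-II, was at -0.097 (-0.31 to 0.12) and so had the opposite sign. Single arrays moved both values: Klp64D ran from -0.15 without control array 5 to -0.025 without nbr RNAi array 4, and Kap3 was at 0.058 without control array 4. Klc, the light chain of conventional kinesin, was at 0.023 (-0.086 to 0.13).

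The transport kinesins split on nbr RNAi array 5, with 5 of 10 lower and 5 higher than on average over the other nbr RNAi arrays. The genes given next were chosen after their values were seen. Unc-104, the carrier of synaptic vesicle precursors, read 9.68 on that array, against 10.18 to 10.62 on its fellow replicates. The difference from the mean of those 4 arrays was -0.65 for unc-104, -0.56 for Klp31E and -0.34 for Khc-73, whereas it was 0.28 for Klp68D and 0.16 for Khc, the heavy chain of conventional kinesin. With all arrays the first 3 had log2 fold changes of -0.0057, -0.0097 and 0.061, and without nbr RNAi array 5 of 0.12, 0.10 and 0.13. Over all 43 genes, 15 had a lower and 28 a higher value on nbr RNAi array 5 than on average over those 4, and over all probe sets tested 2994 were lower and 4735 higher.

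Of the genes in none of these roles, 7 of 24 were tested and none passed. Cpa, the alpha subunit of the actin capping protein that is also part of dynactin, read 13.41, 13.46, 13.40, 13.36 and 13.52 in control RNAi. It read 13.48, 13.54, 13.56, 13.60 and 13.61 in nbr RNAi, with only control array 5 above the lowest nbr RNAi value. The log2 fold change was 0.13 (95% interval 0.030 to 0.22; limma, Benjamini-Hochberg adjusted p = 0.849). Jagn, a protein of the endoplasmic reticulum, was at 0.064 and klar, which tethers motors to nuclei and lipid droplets, at -0.029.

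Other genes of the pathway were taken from the role lists where the annotation did not make them members. Of 21 such genes on the array (further dynactin and dynein regulators, gamma-tubulins, adaptors and microtubule-binding proteins) 20 were tested, none passed, and 0 reached an unadjusted p under 0.05 in limma in either direction. Their median log2 fold change was 0.029, with 13 positive, against 52.9% of all probe sets tested. The range ran from -0.10 for CLIP-190 to 0.15 for Spindly, both named after their values were seen. CLIP-190 is a plus-end binding protein, and Spindly recruits dynein to kinetochores.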

How the data were processed

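Affymetrix Drosophila_2 arrays of 5 control RNAi and 5 nbr RNAi replicates were used. The authors deposited log2 levels per probe set, and GCRMA and Partek are named, without versions, in the submitters' processing notes. Such normalization makes arrays alike, so a change in total RNA would not show. The value table and the deposited statistics table held identical levels in 189520 of 189520 cells. Per the file headers, the deposited statistics comprise a score, q-values (percent), p-values and fold changes with a sign, made with tools not given in the sources used here. Only the q-value was printed.

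Current gene names came from NCBI RefSeq (Release 6 plus ISO1 MT). Of 18952 probe sets, 183 were controls. Of the other 18769, 13773 carried a single symbol, 665 several and 4331 none. The 7729 with a mean of at least 4 were fitted with lmFit and eBayes in limma 3.58.1 (R 4.3.3), without covariates, 2-sided, with Benjamini-Hochberg adjustment over all of them. The fit was tested on simulated data. Plots were drawn with matplotlib 3.10.9 from tables made in pandas 2.3.3 (Python 3.11.15).

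The genes, role lists and markers were chosen with earlier results of these data known, so they give no independent support. Genes named are all tested mitotic kinesins, cytoplasmic dynein chains and tubulins, any with an unadjusted p under 0.05, those of the 2 highest levels and 2 smallest p values in each other role, and the 2 nearest the filter on either side. Alternatives covered the filter, centring, quantile normalization, array weights, the variance model, an unmoderated test, probe set choice, the member rule, a replicate block and left-out arrays. Gene sequences were not used here.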

Additional observations from a re-analysis of the deposited data

Results flagged for a closer look

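In 92 groups of 5 values (the control and the nbr RNAi arrays for each of the 43 tested genes and for the means of mitotic kinesins, cytoplasmic dynein chains and tubulins), 11 held an array farther from its nearest neighbour than Dixon's 95% criterion allows, and chance flags about 1 in 20. On nbr RNAi array 5, cmet read 10.91 against 12.02 to 12.23 on the other nbr RNAi arrays, Klp31E read 11.60 against 12.12 to 12.22, DCTN2-p50 read 12.38 against 12.14 to 12.17, DCTN4-p62 read 10.57 against 10.26 to 10.34, and DCTN6-p27 read 11.12 against 10.67 to 10.75. On nbr RNAi array 2, Klp67A read 10.93 against 11.23 to 11.35, Klp98A read 11.57 against 11.38 to 11.39, and CG10839 read 8.11 against 7.78 to 7.84. On nbr RNAi array 1, alphaTub84B read 14.99 against 15.04 to 15.05. On control array 4, Kap3 read 11.90 against 12.06 to 12.12. On control array 5, DCTN3-p24 read 10.71 against 10.63 to 10.65. The part of array quality in these values was not tested.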

How the results depend on the processing

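No gene of the 43 was called by limma under any alternative run, and nbr stayed called under each of them. The 5 genes higher at an unadjusted p under 0.05 became 8 without the filter (of 87 genes tested, with 2 lower), where 3.32% of all probe sets were higher at that p, and 8 in the unmoderated test, where 4.28% were, and 3 to 8 when 1 array was left out. Including text that only contains the term added 1 gene, ens, and left the count at 5. Signs of small fold changes turned with array weights for DCTN2-p50 (-0.0042), Dlc90F (-0.0031), Klp10A (-0.014), cmet (0.19), DCTN4-p62 (-0.041), Klp31E (0.083), Klp68D (-0.044) and unc-104 (0.075). They turned with quantile normalization for Dhc62B (0.012), betaTub56D (-0.021) and CG10839 (0.024). They turned without nbr RNAi array 5 and control array 3 for DCTN5-p25 (-0.0048), Dhc62B (0.0049), cmet (0.16), CG10839 (0.082), DCTN4-p62 (-0.0072), Klp31E (0.059), Klp68D (-0.038) and unc-104 (0.11), and with the mean of its probe sets for ctp (-0.023). Leaving out 1 array also turned signs, with ranges of -0.026 to 0.053 for DCTN2-p50, -0.020 to 0.066 for DCTN5-p25, -0.0060 to 0.062 for Dhc36C, -0.14 to 0.028 for Dhc62B, -0.0028 to 0.031 for Dlc90F, -0.0003 to 0.051 for Klc, -0.012 to 0.029 for Klp10A, -0.0091 to 0.022 for betaTub56D, -0.11 to 0.22 for cmet, -0.13 to 0.053 for neb, -0.057 to 0.0045 for robl, -0.069 to 0.069 for CG10839, -0.024 to 0.054 for DCTN4-p62, -0.099 to 0.032 for DCTN6-p27, -0.053 to 0.10 for Klp31E, -0.027 to 0.064 for Klp68D and -0.11 to 0.12 for unc-104. The cause of these turns was not tested. With the replicate number as a block, 5 genes were at an unadjusted p under 0.05, all higher, with Klp67A in place of Klp3A, against 3.43% of all probe sets. Fold changes cannot move in this balanced fit (pav stays at 0.25). Same-numbered arrays had correlations of deviations from -0.465 to 0.184, and no nbr RNAi array matched its same-numbered control best. So few arrays, 1 of them set apart, cannot exclude a pairing by number. Over all probe sets the block left 1 call. The number of arrays limits what could be seen at this size of change.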

Other observations

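Probe sets of the same annotation that name several genes or none gave values that no comparison used. Of 15 such or secondary probe sets, 5 were above the filter. One shared by cana, a centromere kinesin gene beside cmet, and CG33695 had log2 levels of 11.22 ± 0.0629 in control RNAi and 11.27 ± 0.101 in nbr RNAi (SD, n = 5). One shared by alphaTub84D and Tm1, the latter a tropomyosin gene, had 10.83 ± 0.114 and 10.86 ± 0.0861 (SD, n = 5). One without a symbol had 11.29 ± 0.234 and 11.31 ± 0.364 (SD, n = 5), and read 10.67 on nbr RNAi array 5 against 11.37 to 11.56 on the other nbr RNAi arrays. Dic61B, named after its values were seen, read 7.26 on nbr RNAi array 5, against 7.92 to 8.48 on its fellow replicates, and its log2 fold change of 0.19 had a 95% interval of -0.28 to 0.65, the only one of the 43 to reach past 1.5-fold. Without that array Dic61B was at 0.39 and reached an unadjusted p under 0.05, but was not called (limma, Benjamini-Hochberg adjusted p = 0.468, and 0.447 to 1.0 over all settings run).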
